A study of Mus musculus with 12 samples.

Results

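NRF2, the transcription factor encoded by Nfe2l2, and the genes for making and recycling glutathione were read as a group of 10 listed mouse genes: Gclc, Gclm, Slc7a11, Gss, Gsr, Nqo1, Hmox1, Txnrd1, Srxn1 and Nfe2l2. A gene was taken in when its symbol in the deposited probe table equalled a listed name. Of the 10, 9 had a probe, among 17924 genes in the table, and Gsr was not analysed here. These 9 genes had 15 probes, of which 12, for 8 genes, passed a filter on dim probes; Nqo1 did not pass it and was left untested.

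The samples were spheroids of NMuMG, an established epithelial cell line from normal mouse mammary gland. Cells were seeded on Matrigel at 5000 per well, grown for 6 days with fresh medium on day 4, and then kept for 4 h in serum-free medium alone, with 250 ng/mL GDF11 or with 50 ng/mL TGFB1, 2 ligands of the TGF-beta superfamily. Each of the 3 groups had 4 biological replicates, each pooled from 2 wells of the same line, and each gave 1 array of a 1-colour bead platform (12 arrays). The ligands were given at different doses and share the serum-free arrays, so their comparisons are not independent of each other. Since all samples are 1 cell line, a lower signal in these bulk samples cannot tell fewer expressing cells from less RNA per cell.

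The arrays fell into a dim and a bright set that runs across the groups unevenly. The mean raw intensity was 149 to 165 on 4 dim arrays (serum-free 1, 2 and 4 and GDF11 1) and 255 to 310 on the other 8, called bright, which include every TGFB1 array. Between 41.2% and 49.6% of the probes were detected on an array. After quantile normalization 49.2% of 9134 genes still differed between the sets in limma, allowing for group. Of the 8 tested genes listed here 4 were higher on bright arrays (Gclc, Gclm, Txnrd1 and Hmox1), against 22.7% of all genes. Calls on the listed genes are therefore also given with a term for the set in the model and on the bright arrays alone, and calls on the wider pathway wherever either reading ends them. On the bright arrays serum-free medium has 1 array and is assumed to vary like the other groups. The luminal keratins Krt8, Krt18 and Krt19 were detected on all 12 arrays, 3 of 6 luminal markers with a probe, while Cldn3, Elf5 and Prlr were detected on 0. No marker of basal cells, fibroblasts, endothelium, leukocytes or adipocytes was detected on every array, and at most 2 of the 5 basal markers on any. The summed log2 level of the 5 basal markers ran from 21.4 to 22.5 in serum-free medium, 22.3 to 25.2 with GDF11 and 23.2 to 23.7 with TGFB1, and its part in the results was not tested.

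Glutathione is a small thiol made from glutamate, cysteine and glycine that cells use against oxidants and electrophiles. Its rate-limiting step joins glutamate to cysteine and is carried out by glutamate-cysteine ligase, whose catalytic subunit is encoded by Gclc and whose modifier subunit is encoded by Gclm; glutathione synthetase (Gss) then adds glycine, and the cystine importer xCT (Slc7a11) supplies the cysteine. NRF2 is held in the cytoplasm and handed to degradation by KEAP1, and when released it pairs with small MAF proteins at antioxidant response elements of many of these genes, whereas ATF4 drives Slc7a11 under amino acid shortage.

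Promoter windows are shown for Gclm and Txnrd1, whose signal was higher with both ligands, and for Slc7a11 and Nfe2l2, whose signal was lower with both. They run from 250 bases before to 50 bases after the annotated start, 5′ to 3′ on the gene's strand, from RefSeq on GRCm38.p6, which held windows for 7 of the 10 genes. Capitals mark matches, read on both strands, to the antioxidant response element core TGACNNNGC or, in Slc7a11, to the CHOP and ATF4 type element TGATGCAA; the second motif was added after the sequences had been seen. The windows lie at chr3:122245307-122245606 (plus strand, Gclm), chr10:82858956-82859255 (plus strand, 1 of 3 Txnrd1 windows), chr3:50443564-50443863 (minus strand, Slc7a11) and chr2:75704614-75704913 (minus strand, Nfe2l2).
Gclm: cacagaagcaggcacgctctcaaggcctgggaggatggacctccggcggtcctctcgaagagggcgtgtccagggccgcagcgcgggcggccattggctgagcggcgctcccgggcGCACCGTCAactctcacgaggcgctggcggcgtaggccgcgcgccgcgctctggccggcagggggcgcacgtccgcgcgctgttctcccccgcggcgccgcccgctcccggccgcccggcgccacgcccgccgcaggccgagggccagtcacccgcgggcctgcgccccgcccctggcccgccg
Txnrd1: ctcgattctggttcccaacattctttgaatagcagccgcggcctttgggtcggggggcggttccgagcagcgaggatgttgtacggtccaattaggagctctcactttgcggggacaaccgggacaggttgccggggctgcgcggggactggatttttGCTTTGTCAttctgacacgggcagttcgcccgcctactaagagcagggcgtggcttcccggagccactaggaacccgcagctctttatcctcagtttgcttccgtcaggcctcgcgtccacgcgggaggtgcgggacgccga
Slc7a11: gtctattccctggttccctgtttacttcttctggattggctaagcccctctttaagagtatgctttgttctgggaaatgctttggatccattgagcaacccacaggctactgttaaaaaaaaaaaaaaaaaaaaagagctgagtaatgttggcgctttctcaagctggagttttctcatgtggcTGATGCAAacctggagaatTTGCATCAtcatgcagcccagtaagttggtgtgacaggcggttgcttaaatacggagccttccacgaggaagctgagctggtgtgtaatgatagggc
Nfe2l2: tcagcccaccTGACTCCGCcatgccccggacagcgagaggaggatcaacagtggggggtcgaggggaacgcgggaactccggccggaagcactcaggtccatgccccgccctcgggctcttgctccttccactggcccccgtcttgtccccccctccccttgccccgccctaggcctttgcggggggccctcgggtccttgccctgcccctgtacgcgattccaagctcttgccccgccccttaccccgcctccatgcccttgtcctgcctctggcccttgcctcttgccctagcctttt
The response element core began 134 bases before the start in Gclm, 92 in Txnrd1 and 240 in Nfe2l2, and it occurs in 12.4% of the 32851 promoter windows of the table. TGATGCAA was matched at 66 and 47 bases before the Slc7a11 start, once on each strand, and occurs in 0.895% of windows. The core was found in 4 of the 7 listed genes with a window, among them Srxn1, which gave no call with either ligand. The Txnrd1 windows not shown held no match. TGANTCAGC, also scanned for, was matched in Srxn1 and occurs in 1.19% of windows. The core was thus present in windows of genes that were higher, of a gene that was lower and of a gene without a call. The matches are descriptions of letters, not of binding.

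Nfe2l2 was lower with both ligands. Its normalized log2 intensity was 6.91, 7.34, 7.25 and 7.49 on serum-free arrays 1 to 4, 6.47, 6.61, 6.44 and 6.31 on the GDF11 arrays, and 6.11, 6.16, 5.92 and 5.86 on the TGFB1 arrays. The 3 groups did not overlap, and TGFB1 was the lowest. Against serum-free medium Nfe2l2 fell by 0.79 ± 0.14 (SE, n = 4 against 4) with GDF11, a 1.73-fold lower signal (limma, adjusted p = 0.00264), and by 1.24 ± 0.14 with TGFB1, a 2.36-fold lower signal (limma, adjusted p = 2.56e-05).

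The Nfe2l2 change was as large in either reading of the array sets. The bright and dim sets differed by -0.01 for this gene (limma, adjusted p = 0.981). With the term the changes were -0.79 (limma, adjusted p = 0.00308) and -1.23 (limma, adjusted p = 0.000159), and the bright arrays alone gave -0.80 for GDF11 (limma, adjusted p = 0.00738) and -1.24 for TGFB1 (limma, adjusted p = 7.31e-05). The same order is seen before normalization on bright arrays, where the raw intensity was 259 in serum-free medium, 155 to 196 with GDF11 and 143 to 162 with TGFB1. The difference between TGFB1 and GDF11 was -0.45 ± 0.14 (95% interval -0.74 to -0.15); it missed the test on 12 arrays (limma, adjusted p = 0.261) and passed it on the bright arrays alone (-0.44, limma, adjusted p = 0.025). A second Nfe2l2 probe was detected on 0 of 12 arrays and carries no level.

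Slc7a11, the cystine importer, was also lower with both ligands. Its log2 intensity was 5.95, 5.89, 5.37 and 5.93 on the serum-free arrays, 4.72, 4.78, 4.90 and 4.60 with GDF11, and 4.58, 4.67, 4.94 and 4.54 with TGFB1. All 8 ligand arrays lay under all 4 serum-free arrays, and the ligands overlapped each other. It fell by 1.04 ± 0.15 with GDF11 (limma, adjusted p = 0.000673) and by 1.10 ± 0.15 with TGFB1 (limma, adjusted p = 0.000145). The signal was near background, with raw intensities of 83.1 to 121 and no detection on GDF11 1, so no fold is given. With the term for the set the changes were -0.91 with each ligand (limma, adjusted p = 0.00101 and 0.00163). The bright serum-free array 3 was the lowest of its group, and on bright arrays alone the changes were -0.61 for GDF11 (limma, adjusted p = 0.0504) and -0.69 for TGFB1 (limma, adjusted p = 0.0107). TGFB1 and GDF11 differed by -0.07 (95% interval -0.39 to 0.26).

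With TGFB1 the 2 subunits of glutamate-cysteine ligase moved in opposite directions; with GDF11 neither the 12 arrays, the term for the set nor the bright arrays alone called both. A fit with a block for replicate number did call both with GDF11, but replicate numbers were not taken as pairs. Gclc, the catalytic subunit, read 5.83, 6.38, 7.15 and 6.98 on the serum-free arrays, 4.28, 6.00, 6.04 and 6.09 with GDF11, and 5.28, 5.07, 5.26 and 5.28 with TGFB1. The TGFB1 arrays lay under every serum-free array, while GDF11 overlapped serum-free medium through serum-free 1 and had GDF11 1, on which it was not detected, as the lowest array of all. Gclc fell by 1.36 ± 0.37 with TGFB1 (limma, adjusted p = 0.0138), and its change with GDF11 was -0.98 ± 0.37 (limma, adjusted p = 0.104). The raw intensity was 92.5 on serum-free 1 and 111 to 120 with TGFB1, near background, so no fold is given. Over 12 alternatives of processing the TGFB1 change ran from -2.31 to -0.43.

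Gclc also moved with array brightness, by 1.26 higher on bright arrays (limma, adjusted p = 0.00107). With the term for the set, Gclc fell by 1.61 with GDF11 (limma, adjusted p = 0.000836) and by 2.31 with TGFB1 (limma, adjusted p = 7.2e-05). Without GDF11 1, on which Gclc was not detected, the GDF11 change with the term was -1.11 (limma, adjusted p = 0.0734). The TGFB1 call with the term was kept whichever array was left out. Among bright arrays Gclc fell by 1.11 with GDF11 and by 1.93 with TGFB1. These 2 changes are given without error or test, since 1 serum-free array shows no spread of its group. Over all 4 arrays of a group, dim and bright, the SD of Gclc was 0.60 in serum-free medium and 0.10 with TGFB1. The raw intensity on bright arrays was 247 in serum-free medium, 143 to 166 with GDF11 and 111 to 120 with TGFB1. There TGFB1 was 0.82 lower than GDF11 on the log2 scale (-0.82 ± 0.09, limma, adjusted p = 0.000123), a difference of -0.38 ± 0.37 over all 12 arrays (limma, adjusted p = 0.801).

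Gclm, the modifier subunit, read 9.61, 9.48, 10.16 and 9.49 on the serum-free arrays, 9.96, 10.30, 10.56 and 10.33 with GDF11, and 10.83, 10.75, 10.76 and 10.76 with TGFB1. TGFB1 lay above every other array, and GDF11 overlapped serum-free medium only through dim GDF11 1 and bright serum-free 3. Gclm rose by 0.60 ± 0.16 with GDF11 (1.52-fold, limma, adjusted p = 0.0341) and by 1.09 ± 0.16 with TGFB1 (2.13-fold, limma, adjusted p = 0.00034). Bright arrays read 0.54 higher than dim ones (limma, adjusted p = 0.000794). With the term for the set the changes were 0.34 for GDF11 (limma, adjusted p = 0.0513) and 0.69 for TGFB1 (limma, adjusted p = 0.000933), and on bright arrays alone 0.24 (limma, adjusted p = 0.376) and 0.61 (limma, adjusted p = 0.00612). On 12 arrays the GDF11 call also depended on single libraries: it was kept in 2 of the 12 fits that left out 1 array, those without serum-free 3 or GDF11 1, and otherwise reached an adjusted p of up to 0.113 in limma.

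Taking Gclm minus Gclc on each array reads both subunits on the same array, and the contrast was chosen after both genes' values had been seen. Brightness does not cancel in it, since bright arrays read 1.26 higher for Gclc and 0.54 higher for Gclm. The contrast was not fitted with the term for the set. Probes of different genes bind unequally, so only its differences between arrays carry meaning. Relative to the serum-free mean, the arrays read 0.67, 0.01, -0.09 and -0.59 in serum-free medium, 2.58, 1.20, 1.42 and 1.14 with GDF11, and 2.45, 2.58, 2.41 and 2.37 with TGFB1, in log2 units. All 8 ligand arrays lay above all 4 serum-free arrays. The mean difference from serum-free medium was 1.59 for GDF11 and 2.45 for TGFB1, given without a test because of how the contrast was chosen. TGFB1 exceeded GDF11 by 0.87, and by 0.64 to 1.31 under the 5 other settings for background, offset and normalization. Without GDF11 1, on which Gclc was not detected, it was 1.20, and GDF11 against serum-free medium was 1.25. On bright arrays alone the differences from serum-free medium were 1.34 and 2.54.

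**Figure D1:**
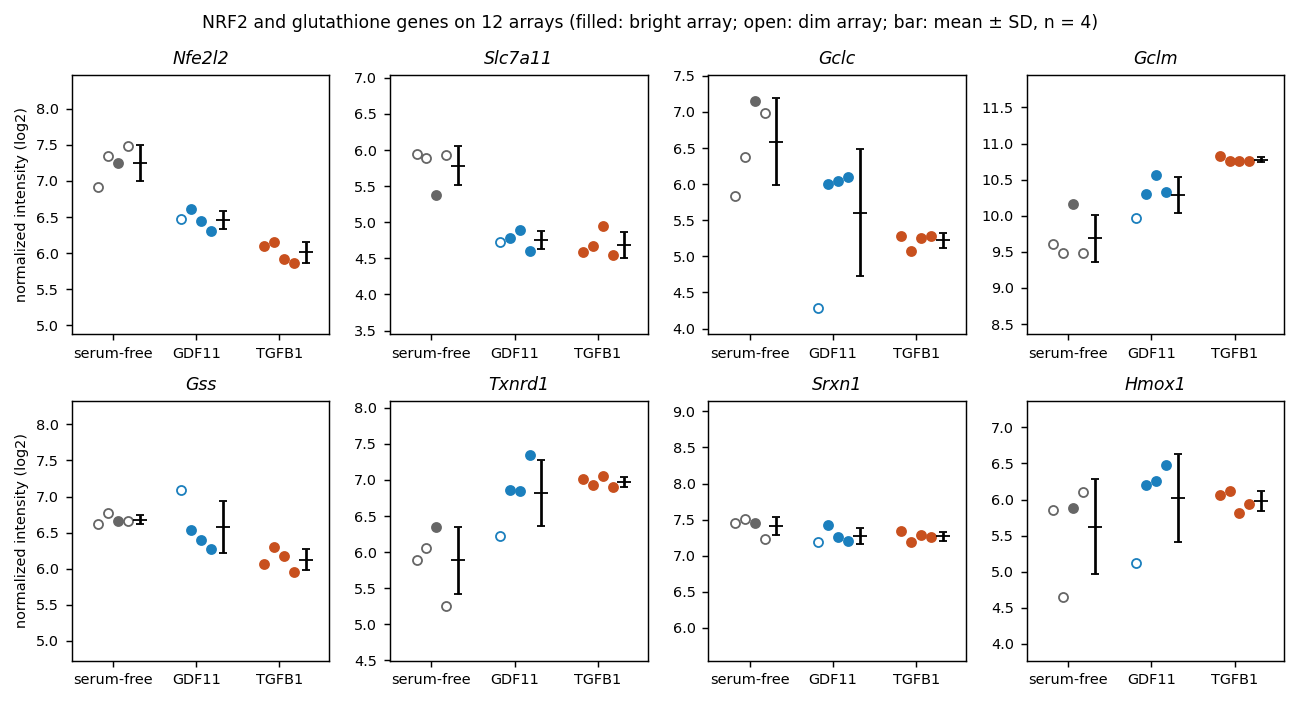
Normalized log2 intensity (vertical axis, each panel spanning the same range) of the 8 tested genes on 12 arrays in serum-free medium, GDF11 and TGFB1; filled points are bright arrays, open points dim arrays, and bars the mean ± SD of 4 arrays. The groups separate for Nfe2l2 (7.25, 6.46 and 6.01 on average), Slc7a11 drops to the same range with both ligands, and the single open GDF11 point stands away from the filled ones for Gclc, Txnrd1 and Hmox1.

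**Figure D2:**
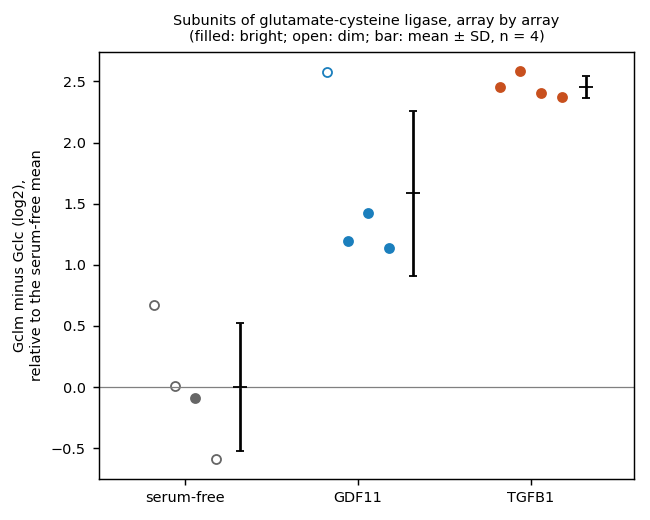
Gclm minus Gclc in log2 units for each of 12 arrays, relative to the serum-free mean (horizontal line at 0); filled points are bright arrays, open points dim arrays, bars the mean ± SD of 4 arrays. The TGFB1 arrays sit between 2.37 and 2.58, the bright GDF11 arrays between 1.14 and 1.42, and the serum-free arrays between -0.59 and 0.67.

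Gss, which completes glutathione, was lower with TGFB1 and did not pass with GDF11. Its brightest probe read 6.62, 6.77, 6.67 and 6.66 on the serum-free arrays, 7.09, 6.54, 6.40 and 6.27 with GDF11, and 6.07, 6.30, 6.18 and 5.96 with TGFB1. TGFB1 lay under every serum-free array, and dim GDF11 1 was the highest of the 12. Gss fell by 0.55 ± 0.16 with TGFB1 (1.46-fold lower, limma, adjusted p = 0.0197), against -0.10 ± 0.16 with GDF11 (limma, adjusted p = 0.691). With the term for the set the TGFB1 change of this probe was -0.29 (limma, adjusted p = 0.299), and on bright arrays alone -0.54 (limma, adjusted p = 0.0269). The other 2 Gss probes gave -0.71 and -0.47 with TGFB1 (limma on single probes, adjusted p = 0.00166 and 0.0151) and, with the term, -0.75 and -0.61 (adjusted p = 0.00509 and 0.00906). The TGFB1 call of the brightest probe was lost without any 1 of serum-free 2, TGFB1 1 or TGFB1 4 (limma, adjusted p up to 0.06).

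Txnrd1 encodes the cytosolic thioredoxin reductase, which uses NADPH to keep thioredoxin reduced. It read 5.90, 6.05, 6.34 and 5.25 on the serum-free arrays, 6.22, 6.86, 6.85 and 7.34 with GDF11, and 7.01, 6.93, 7.06 and 6.91 with TGFB1. TGFB1 lay above every serum-free array, and GDF11 1 lay within the serum-free range. Txnrd1 rose by 0.93 ± 0.24 with GDF11 (1.91-fold, limma, adjusted p = 0.0245) and by 1.09 ± 0.24 with TGFB1 (2.13-fold, limma, adjusted p = 0.00427). Brightness moved it by 0.70 (limma, adjusted p = 0.00701), and with the term for the set neither change passed: 0.58 for GDF11 (limma, adjusted p = 0.0652) and 0.56 for TGFB1 (limma, adjusted p = 0.0958). On bright arrays alone both passed, at 0.67 (limma, adjusted p = 0.0414) and 0.63 (limma, adjusted p = 0.0229). On 12 arrays the GDF11 call was lost without any 1 of serum-free 1 or 4 or GDF11 2, 3 or 4 (limma, adjusted p up to 0.0861).

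Srxn1 and Hmox1, which like Nqo1 are much used as readouts of NRF2 activity, gave no call with either ligand, and Nqo1 was not tested. Srxn1, the sulfiredoxin that restores overoxidized peroxiredoxins, read 7.23 to 7.51 in serum-free medium, 7.19 to 7.43 with GDF11 and 7.19 to 7.34 with TGFB1. Its changes were -0.14 with each ligand (95% intervals -0.37 to 0.10 and -0.38 to 0.09, limma, adjusted p = 0.402 and 0.323). A dimmer Srxn1 probe, detected on 9 of 12 arrays, gave 0.73 with TGFB1 (limma, adjusted p = 0.0696), and 0.06 on bright arrays alone.

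Hmox1, the heme oxygenase that breaks down heme, read 4.65 to 6.10 in serum-free medium, 5.12 to 6.48 with GDF11 and 5.81 to 6.11 with TGFB1, all overlapping. Its changes were 0.39 (95% interval -0.28 to 1.07) and 0.36 (-0.32 to 1.04), with limma adjusted p = 0.402 and 0.388, and both intervals reach past 1 on the log2 scale. Serum-free 2 was not detected for Hmox1. Nqo1, a quinone reductase, was detected on 1 of 12 arrays by one probe and on 0 by the other, with raw intensities of 77.2 to 94.0, so no level can be given for it at this signal.

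The listed genes were chosen with earlier results of these data known, so counts beside their backgrounds are descriptions, not a test of the group. Over the 8 tested genes, 4 passed with GDF11, where 9.93% of all 9134 genes passed: 2 rose (4.78% of all genes) and 2 fell (5.15%). With TGFB1 6 passed against a background of 34.4%: 2 rose (15.7%) and 4 fell (18.7%). Between TGFB1 and GDF11 none of the 8 passed in limma, and 0.832% of all genes passed; 3 of the 8 had an unadjusted p under 0.05, against 8.85% of all genes. The median change of the 8 was -0.12 with GDF11, -0.35 with TGFB1 and -0.05 between ligands, against -0.02, -0.01 and -0.01 over all genes. Groups did not overlap for 2 of the 8 with GDF11 (10.7% of all genes), for 6 with TGFB1 (33.5%) and for 2 between the ligands (10.5%).

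With the term for the array set, 3 of the 8 passed with GDF11 (background 10.4%), namely Nfe2l2, Slc7a11 and Gclc, all lower (4.82%). With TGFB1 4 passed (15.9%), Gclm higher (7.93%) and the same 3 genes lower (7.93%), and between the ligands none passed in limma (2.51%). On bright arrays alone 3 passed with GDF11 (6.16%) and 6 with TGFB1 (17.1%). There 3 passed between the ligands (5.87%): Gclm was higher with TGFB1 (3.13%), and Gclc and Nfe2l2 were lower (2.74%).

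Scaling each array on its median in place of quantile normalization moved the median of all genes by 0.39 with GDF11 and by 0.69 with TGFB1, so values on that scale are read relative to it. Nfe2l2 then lay at -0.58 with GDF11 and -0.999 with TGFB1, Slc7a11 at -0.85 and -1.17, Gclc at -0.60 and -1.28, Gclm at 0.77 and 1.40, and Txnrd1 at 0.97 and 1.19. Relative to the median, a reading that takes the median gene as unchanged, these 5 genes kept their direction, and Gss gave 0.06 and -0.33. Before the median was taken off, Nfe2l2 gave -0.20 and -0.31 (limma, adjusted p = 0.701 and 0.451). Gclc gave -0.21 and -0.60 (limma, adjusted p = 0.782 and 0.327). Of the 8 genes, none passed with GDF11 in limma on this scale and 3 passed with TGFB1, namely Gclm, Slc7a11 and Txnrd1. Over all genes 176 of 190 calls were higher with GDF11 and 4190 of 4297 with TGFB1, against 437 of 907 and 1436 of 3140 after quantile normalization.

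The authors' processed values, whose log base is not given in the sources used here, were also tested. In them Nfe2l2 gave -0.35 with GDF11 and -0.51 with TGFB1 (limma, adjusted p = 0.0143 and 0.000589), and Slc7a11 gave -0.21 and -0.22 (limma, adjusted p = 0.00423 and 0.000982). Gclc gave -0.28 and -0.43 (limma, adjusted p = 0.24 and 0.0441), and Txnrd1 gave 0.44 and 0.54 (limma, adjusted p = 0.0521 and 0.0098). Gclm gave 0.57 and 1.07 (limma, adjusted p = 0.0286 and 0.000279), and Gss with TGFB1 gave -0.16 (limma, adjusted p = 0.0615).

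Wider lists of the same pathways, also chosen with earlier results known, held 102 genes, of which 83 were tested. With GDF11 15 passed, 3 higher and 12 lower, and with TGFB1 34 passed, 12 higher and 22 lower, at the backgrounds given above; on arrays scaled to their medians 35 passed with TGFB1, 32 higher and 3 lower. On bright arrays alone the counts were 5 (2 higher) and 23 (3 higher), and with the term 18 (3 higher) and 25 (4 higher). The median change of the 83 was -0.01 with GDF11 and -0.03 with TGFB1. Of the 15 GDF11 calls, Cbs, Trib3, Gstt3, Osgin1 and Cbr3 passed whichever array was left out, and the other 10 did not. Of the TGFB1 calls named below, Nfe2l1, Chac1, Glrx, Glrx2, Glrx3, Txn1, G6pdx and Me1 were lost without at least 1 array.

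Among 8 other genes of NRF2 control, 2 passed with GDF11 (9.93% of all genes) and 3 with TGFB1 (34.4%). For Keap1 these calls are on its brightest probe. The mean of the Keap1 probes was called with neither ligand and gave 0.03 with TGFB1 (limma, adjusted p = 0.887). Keap1, the adaptor that marks NRF2 for degradation, fell by 0.46 ± 0.12 with GDF11 (limma, adjusted p = 0.0234) and by 0.44 ± 0.12 with TGFB1 (limma, adjusted p = 0.0133); on bright arrays alone it gave -0.30 (limma, adjusted p = 0.209) and -0.21 (limma, adjusted p = 0.278), and with the term -0.34 (limma, adjusted p = 0.0348) and -0.24 (limma, adjusted p = 0.153). Maff, a small MAF partner, rose by 1.14 with GDF11 (limma, adjusted p = 0.0427) and 1.60 with TGFB1 (limma, adjusted p = 0.00302), from a serum-free signal detected on 2 of 4 arrays, and on bright arrays alone by 0.75 and 0.87 (limma, adjusted p = 0.0187 and 0.00254); with the term it gave 0.56 and 0.73 (limma, adjusted p = 0.0968 and 0.0447). Bach1, the repressor that competes for the same elements, gave -0.29 and -0.71 (limma, adjusted p = 0.591 and 0.132) and 0.03 and 0.04 on bright arrays alone. Nfe2l1, a related factor, rose by 0.45 with TGFB1 (limma, adjusted p = 0.0404) and gave 0.09 with the term and 0.05 on bright arrays alone.

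Of 17 other NRF2 targets and antioxidant enzymes, 3 fell (5.15% of all genes) and 0 rose (4.78%) with GDF11. With TGFB1 5 fell (18.7%) and 1 rose (15.7%). With GDF11 none of the 17 had an unadjusted limma p under 0.05 in the upward direction, against 13.4% of all genes. Osgin1, an oxidative stress induced growth inhibitor gene, read 9.01 to 9.31 on the serum-free arrays, 7.40 to 8.00 with GDF11 and 6.69 to 7.15 with TGFB1. The 3 groups did not overlap. Osgin1 fell by 1.40 ± 0.15 with GDF11 (limma, adjusted p = 6.55e-05) and by 2.30 ± 0.15 with TGFB1 (limma, adjusted p = 2.52e-07), and it was the 1 pathway gene of 83 that differed between the ligands on 12 arrays (-0.90 ± 0.15, limma, adjusted p = 0.0139). The call between the ligands was kept in 7 of the 12 fits that left out 1 array (limma, adjusted p up to 0.0618). With the term Osgin1 gave -1.37 with GDF11 and -2.26 with TGFB1. Cbr3, a carbonyl reductase, fell by 1.12 and 1.75 (limma, adjusted p = 0.0115 and 0.000183) and on bright arrays alone by 1.03 and 1.37, and gave -0.70 and -1.13 with the term. Aldh3a1, an aldehyde dehydrogenase, fell by 0.59 and 0.79 (limma, adjusted p = 0.037 and 0.00324), and the quinone reductase Nqo2 fell by 1.05 with TGFB1 (limma, adjusted p = 0.000492). With the term Aldh3a1 gave -0.38 and -0.47 (limma, adjusted p = 0.101 and 0.0549), and on bright arrays alone -0.49 and -0.55 (limma, adjusted p = 0.149 and 0.0466). Nqo2 gave -0.70 with the term and -0.60 on bright arrays alone.

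Of 12 genes of cysteine supply and ATF4 targets, 1 rose (4.78% of all genes) and 3 fell (5.15%) with GDF11. With TGFB1 2 rose (15.7%) and 5 fell (18.7%). Cbs, which makes cystathionine on the way from homocysteine to cysteine, fell by 0.88 and 0.96 (limma, adjusted p = 0.00498 and 0.00107), and gave -0.52 and -0.73 on bright arrays alone (limma, adjusted p = 0.0775 and 0.00504). The Cbs signal was near background, with raw intensities of 80.3 to 122 and no detection on GDF11 1 or TGFB1 1. Ddit3, which encodes CHOP, fell by 0.93 and 1.46 (limma, adjusted p = 0.0268 and 0.000674) and gave -0.53 and -0.86 with the term (limma, adjusted p = 0.0531 and 0.00565). Trib3, a target of ATF4 and CHOP, rose by 0.65 and 0.79 (limma, adjusted p = 0.00887 and 0.000921) and on bright arrays alone by 0.75 and 1.00. Chac1, which breaks down glutathione, fell by 0.47 and 0.46 (limma, adjusted p = 0.0452 and 0.0222) and was called in neither reading, with -0.24 and -0.14 on bright arrays alone. Psat1, of serine synthesis, fell by 0.53 with TGFB1 (limma, adjusted p = 0.0079).

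In the transferases, which couple glutathione to electrophiles, 2 of 16 fell with GDF11 (5.15% of all genes) and 6 with TGFB1 (18.7%), and 0 rose (4.78% and 15.7%). An unadjusted limma p under 0.05 in the upward direction was likewise seen for 0 of the 16 with either ligand, against 13.4% of all genes with GDF11 and 21.8% with TGFB1. With the term for the set 5 of the 16 fell with GDF11 and 9 with TGFB1, against 4.82% and 7.93% of all genes. Of the 16, 0 and 7 fell on bright arrays alone, against 2.58% and 8.43% of all genes. Gstt3 fell by 0.68 and 0.89 (limma, adjusted p = 0.00311 and 0.000146) and gave -0.39 and -0.65 on bright arrays alone (limma, adjusted p = 0.129 and 0.00444). Gstp1 fell by 0.61 and 0.86 on its brightest probe (limma, adjusted p = 0.0209 and 0.000944), but the mean of its probes gave 0.11 and 0.10, and bright arrays alone -0.24 and -0.41 (limma, adjusted p = 0.326 and 0.0366). Gstz1 fell by 0.84 and Gstm2 by 0.98 with TGFB1 (limma, adjusted p = 0.00348 and 0.0074), with -0.40 and -0.36 under the term (limma, adjusted p = 0.0437 and 0.15), and neither passed on bright arrays alone. Transferases of one class have near-identical copies that a probe may not separate. Of 3 tested genes of breakdown and export, Ggct, the gamma-glutamylcyclotransferase, fell by 0.69 and 0.83 (limma, adjusted p = 0.0245 and 0.00347), with -0.09 and -0.24 on bright arrays alone and a call in neither reading.

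Of 8 peroxidases and glutaredoxins 1 rose with GDF11 (4.78% of all genes) and 3 with TGFB1 (15.7%). Glrx, the cytosolic glutaredoxin, rose by 0.43 and 0.37 (limma, adjusted p = 0.0432 and 0.0333) and by 0.53 and 0.53 with the term; on bright arrays alone it gave 0.51 with each (limma, adjusted p = 0.073 and 0.0319). Glrx2 and Glrx3 rose by 1.13 and 0.82 with TGFB1 (limma, adjusted p = 0.039 and 0.042), and gave -0.03 and 0.00 with the term and 0.08 and 0.02 on bright arrays alone. Of 10 thioredoxin and peroxiredoxin genes 2 fell with GDF11 (5.15% of all genes), and 2 rose (15.7%) and 3 fell (18.7%) with TGFB1. Txnip, which binds and inhibits thioredoxin, fell by 0.75 and 0.88 (limma, adjusted p = 0.0246 and 0.00405). It gave -0.61 and -0.67 with the term (limma, adjusted p = 0.069 and 0.0613) and -0.72 and -0.76 on bright arrays alone (limma, adjusted p = 0.109 and 0.0437). The mitochondrial reductase Txnrd2 fell by 0.56 and 0.50 (limma, adjusted p = 0.0175 and 0.0125), with -0.40 and -0.27 under the term (limma, adjusted p = 0.029 and 0.181) and a call in neither comparison on bright arrays alone. With TGFB1 the peroxiredoxin Prdx4 fell by 0.65 (limma, adjusted p = 0.00891) and gave -0.27 with the term and -0.28 on bright arrays alone, called in neither. Thioredoxin itself, Txn1, rose by 1.93 (limma, adjusted p = 0.0163) and gave 0.27 with the term (limma, adjusted p = 0.35) and 0.47 on bright arrays alone (limma, adjusted p = 0.0914).

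Of 9 genes of NADPH supply none passed with GDF11 in limma, against 9.93% of all genes, and 1 had an unadjusted p under 0.05, against 29.5%. With TGFB1 2 rose (15.7% of all genes) and 1 fell (18.7%). Idh1, the cytosolic NADP-dependent isocitrate dehydrogenase, fell by 1.04 (limma, adjusted p = 0.000548) and by 0.69 on bright arrays alone, and gave -0.67 with the term. G6pdx, the first enzyme of the pentose phosphate pathway, rose by 0.43 (limma, adjusted p = 0.0299) and gave 0.28 with the term (limma, adjusted p = 0.27) and 0.45 on bright arrays alone (limma, adjusted p = 0.0525). Malic enzyme, Me1, rose by 0.92 (limma, adjusted p = 0.046) and gave -0.09 with the term and -0.02 on bright arrays alone.

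**Figure D3:**
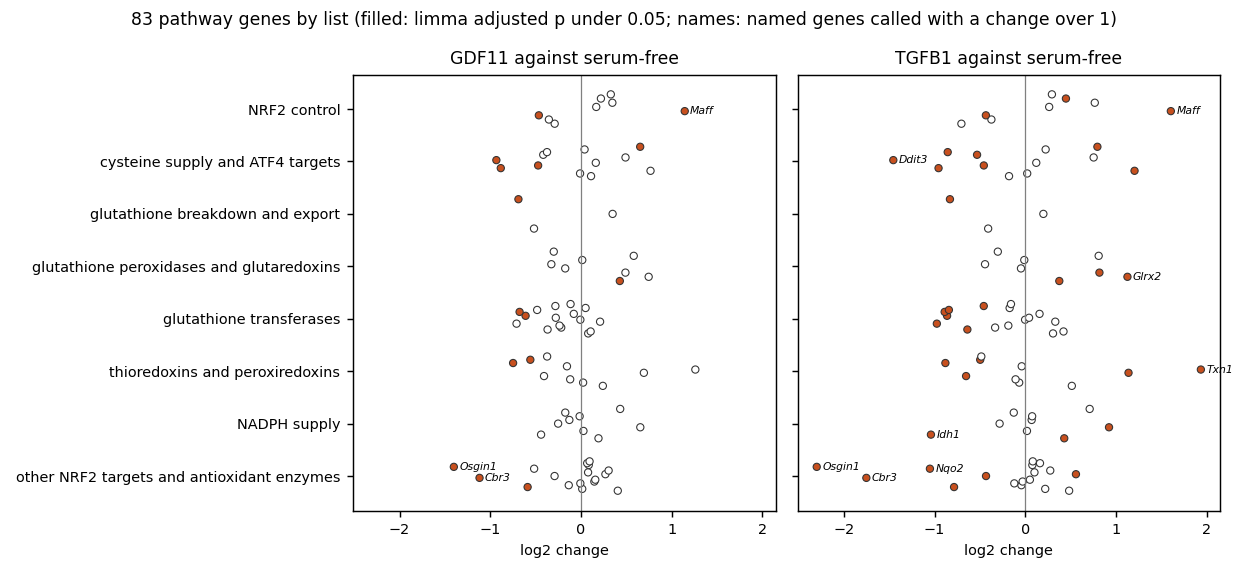
Log2 change of 83 pathway genes in 8 lists against serum-free medium, for GDF11 (left) and TGFB1 (right); filled points passed in limma, and labels give the named genes called with a change over 1. Osgin1 lies farthest to the left in both panels (-1.40 and -2.30), and Txn1 farthest to the right with TGFB1 (1.93), a gene that gave 0.27 with the term for array brightness.

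Genes whose profile over the 12 arrays lay closest to a member were found by the root mean square difference of log2 values, each gene centred on its own mean. Nfe2l2 was nearest to Ccdc3 (0.13 log2 units), Ctdspl (0.15) and Abcc3 (0.15), against its own spread of 0.53. Slc7a11 was nearest to Sgpp2 (0.15), Pbld2 (0.15) and Extl2 (0.16), against 0.53. Gclc was nearest to Mgat3 (0.27), Pof1b (0.31) and Klf4 (0.37), against 0.79. Gclm was nearest to Pde4dip (0.12), Prune1 (0.13) and Colgalt1 (0.13), against 0.49. Txnrd1 was nearest to Map3k7 (0.15), Tmem132a (0.15) and Efna1 (0.18), against 0.58, and Gss to Ccpg1, Cxcl17 and Ell3 (0.14 each), against 0.31. These distances are taken over the same arrays that carry the ligands and the brightness, so they are a description only.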

How the data were processed

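The deposited table gives per probe and array a mean bead intensity on a linear scale without background subtraction, its bead standard error, a detection p-value and a bead number, per the file headers. A second deposited table holds the authors' own processed values, which look like log2 intensities; lumi is the tool named in the submitters' processing notes, and the log base is not given in the sources used here. From the intensities, limma 3.58.1 in R 4.3.3 (neqc) took background from the detection p-values, added an offset of 16, quantile normalized and took log2. A probe stayed in when 4 or more of the 12 arrays detected it (p under 0.05), which left 12680 of 25697, and the brightest probe stood for its gene. Group means were fitted over all 12 arrays with lmFit and eBayes, and p-values were adjusted by Benjamini-Hochberg over 9134 genes, called under 0.05. An array was bright when its mean intensity was above 200. The number of arrays limits the precision. The members and pathway lists were chosen with earlier results of these data known. Named genes are all 10 members, Keap1, Bach1, up to 4 called genes of smallest p per list and comparison, and the 3 nearest profiles of each called member. Alternatives covered background, offset, normalization, filter, probe summary, brightness, replicate block and leaving out each array. The fit was tested on simulated data. Figures were drawn with matplotlib 3.10.9 in Python 3.11.15.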

Additional observations from a re-analysis of the deposited data

Results flagged for a closer look

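Within each group of 4 arrays, an array was picked out when its gap to the nearest of the others exceeded Dixon's critical share of the group's range, which chance does in about 1 in 20 groups; 17 of 114 groups tested met this, 5 of 24 for the members. GDF11 replicate 1, the dim array of its group, stood apart for Gclc (4.28 against 6.00 to 6.09), Keap1 (7.58), Ddit3 (6.83), Glrx2 (6.40), Gstp1 (11.76), G6pdx (6.03) and Me1 (8.80). Serum-free replicate 3, the bright array of its group, stood apart in mean raw intensity (283 against 149 to 165) and for Slc7a11 (5.37 against 5.89 to 5.95), Gstp1 (11.68), Gstz1 (7.29), Txn1 (9.81) and Me1 (10.16). Serum-free replicate 2 was low for Hmox1 (4.65 against 5.86 to 6.10). TGFB1 replicate 2 was low for Gclc (5.07 against 5.26 to 5.28) and high for Gstm2 (8.11), and TGFB1 replicate 1 was high for Gclm (10.83 against 10.75 to 10.76), in groups whose whole range was narrow.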

How the results depend on the processing

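All 4 TGFB1 arrays are bright and 3 of 4 serum-free arrays dim. Under 13 alternatives, 1 of which joins the replicate block to the brightness term, and fewer where a probe was filtered out, Nfe2l2 passed in 12 of 13 with each ligand, missing under median scaling, Slc7a11 in 10 of 12 with GDF11 and 12 of 12 with TGFB1, Gclc in 4 of 12 and 11 of 12, Gclm in 8 of 13 and 13 of 13, Txnrd1 in 8 of 13 and 11 of 13, and Gss in 0 of 13 and 9 of 13. Median scaling moved the median of all genes by 0.39 with GDF11, 0.69 with TGFB1 and 0.30 between ligands, and called 0, 3 and 0 members, 1, 35 (32 higher) and 0 pathway genes, and 8 members between the array sets in place of 4. Under it these values turned positive, by less than the shift of the median except Gss with GDF11 and Srxn1 in each comparison: with GDF11 Gss (0.45), Srxn1 (0.45), Keap1 (0.10), Chac1 (0.10), Txnrd2 (0.0082) and Bach1 (0.24); with TGFB1 Gss (0.35), Srxn1 (0.85), Keap1 (0.54), Chac1 (0.53), Psat1 (0.39), Ggct (0.020), Gstp1 (0.064), Gstz1 (0.11), Gstm2 (0.0053), Txnrd2 (0.39), Txnip (0.086), Prdx4 (0.29), Aldh3a1 (0.19) and Bach1 (0.15); between ligands Srxn1 (0.40) and Hmox1 (0.18). With the term for the set, the sign turned for Gss (0.075) and Bach1 (0.38) with GDF11, for Hmox1 (-0.22), Glrx2 (-0.035), Glrx3 (-0.00018), Me1 (-0.089) and Bach1 (0.31) with TGFB1 and for Txnrd1 between ligands (-0.018), where 2 pathway genes passed. On bright arrays alone it turned for Bach1 (0.029 and 0.039), Me1 (-0.017) and Txnrd1 between ligands (-0.041), with 5 pathway genes called for GDF11 and, between ligands, 3 members and 6 pathway genes. The authors' processed values turned Gss with GDF11 (0.019) and Srxn1 with TGFB1 (0.0063) and between ligands (0.035), cyclic loess turned Srxn1 between ligands (0.021), and the mean of probes turned Gstp1 (0.11 and 0.10), Srxn1 (0.15, and 0.19 between ligands) and Keap1 with TGFB1 (0.033). With no filter on dim probes 2 members passed with GDF11, where 754 of all 17924 genes passed. The causes were not tested.

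Replicate numbers were not taken as pairs: arrays of one number correlated at -0.33 to 0.61, and 4 of 12 correlated best with their own number. With the replicate block 5, 6 and 0 members and 14, 36 and 1 pathway genes passed with GDF11, with TGFB1 and between ligands. Of all 9134 genes 868, 3299 and 57 passed there. With the replicate block and the brightness term 3, 4 and 0 members and 12, 18 and 1 pathway genes passed, and 650, 1048 and 201 of all genes. In that fit the sign turned for Gss (0.11), Hmox1 (-0.12) and Bach1 (0.43) with GDF11. It turned for Hmox1 (-0.41), Glrx2 (-0.078), Me1 (-0.084) and Bach1 (0.38) with TGFB1, and for Slc7a11 (0.046) and Txnrd1 (-0.047) between ligands.

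Leaving out each array gave 2 to 4 members with GDF11, 5 to 6 with TGFB1 and 0 between ligands, 5 to 36, 23 to 45 and 0 to 1 pathway genes, and 2 to 5 members between the array sets. Over all 9134 genes these fits called 444 to 3367 with GDF11, 2046 to 4453 with TGFB1 and 19 to 109 between ligands. Nfe2l2 and Slc7a11 passed in all 12 such fits with each ligand, as did Gclc, Gclm and Txnrd1 with TGFB1. With GDF11, Txnrd1 passed in 7 and Gclm in 2 of the 12. Between ligands Hmox1 then ran from -0.33 to 0.12, Srxn1 from -0.031 to 0.046 and Txnrd1 from -0.041 to 0.33, and Gss with GDF11 from -0.27 to 0.00024. With the term and without GDF11 replicate 1, alternatives added after the data were seen, 0 members passed with GDF11 and 5 with TGFB1. Calls over all 9134 genes were also fewer there with each ligand than with the term on all arrays. The loss of GDF11 calls was thus not particular to the members. In that fit Nfe2l2 had an adjusted p of 0.067 with GDF11 in limma.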
